A study of Mus musculus with 5 samples.

Results

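Interferon-induced effector genes were followed across B16F1 mouse melanoma cells that differed in TGF-β1 treatment, in CCG1423 treatment and in the thymosin β4 gene Tmsb4x. The set was a list of 40 named mouse genes whose products carry out the antiviral and antimicrobial programme that interferons switch on. Probes were assigned through their RefSeq accession, and 38 of the 40 genes had at least 1 probe among 22903 named genes. Mx1 and Mx2 had no matching accession, so their levels were not analysed here. Of the 38, 37 were well above background on at least 1 array and 31 on all 5. Epsti1 reached that level on none.

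Type I interferons bind a cell-surface receptor whose kinases activate a transcription factor complex containing STAT2 and IRF9, which binds interferon-stimulated response elements in promoters. Interferon-γ acts through a separate receptor, and its signal reaches promoters at GAS elements. The proteins made in response sense viral RNA, block its translation, tag proteins with ISG15, attack intracellular vacuoles or call in immune cells, and tumour cells can run the programme without added interferon.

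There were 4 groups on 5 one-colour arrays: wild-type cells with vehicle (n = 1), wild-type cells with TGF-β1 at 10 ng/ml for 2 days (n = 1), wild-type cells with TGF-β1 and 10 µM CCG1423 for 2 days (n = 1), and 2 Tmsb4x knockout clones, 1 array each, given the same TGF-β1 dose and time (n = 2). CCG1423 is a small-molecule inhibitor of MRTF signalling, the actin-controlled branch of SRF-driven transcription. All groups shared the B16F1 background and serum-containing medium, and interferon was not among the agents the labels list. Each clone is a single derived line, knockout cells with vehicle were not among the arrays, and the labels say knockout where the design text says knockdown. The CCG1423 array was placed by its title, since its treatment field names CCG1423 alone. No label says that the cultures were grown on separate occasions. Any p-value rests on the distance between these 2 clones, drawn by the test toward the spread of all genes at that level. It does not cover variation between cultures.

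Per array, 48.2% to 53.8% of probes passed the well-above-background call, and 0 spots were saturated. The 5 arrays shared a slide and a scan, so no batch could be tested. Detection began at a signal of 26.0 in clone 2 and at 13.3 to 15.5 elsewhere. Tmsb4x itself had a normalized log2 level of 5.05 with vehicle, 7.12 with TGF-β1, 6.79 with CCG1423 added, 5.44 in clone 1 and 4.28 in clone 2. Both clones were below the wild-type TGF-β1 array, but the difference missed the threshold (limma, adjusted p = 0.0864), and where the probe lies relative to the lesion was not given in the sources used here. All 10 melanocyte markers were well above background on every array. Of 10 immune-cell markers, 5 were well above background on at least 1 array. Ptprc, Laptm5, Adgre1, Itgax and Lyz2 were not well above background on any array, and the log2 of the summed immune-marker signal ran from 5.03 in clone 2 to 5.42 with CCG1423, with 5.37 in clone 1. Of the 6 fibroblast markers only Lum, and of the 6 epithelial markers only Krt14, was well above background on any array; for 5 endothelial markers this held for Pecam1 and Vwf. Fewer responding cells and less RNA per cell cannot be told apart in such bulk RNA.

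The level given below is log2 signal minus the 75th percentile of the array, read from 1 spot per gene. It can be compared between arrays for a gene, not between genes. Unless named, 5 values in a row stand for vehicle, TGF-β1, TGF-β1 with CCG1423, clone 1 and clone 2. Where a signal was not well above background, a fold is a bound against the lowest detectable signal of that array and is written "at least". Differences between single arrays have no replicate check and no p-value.

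Clone 2 carried the highest level of most effector genes and clone 1 the lowest. Among the 31 genes measured on all 5 arrays, clone 2 was the highest array for 27, whereas it was highest for 17.9% of all 12055 genes measured on all arrays. Clone 1 was the lowest array for 18 of the 31, against 18.8% of all genes. For 6 members the vehicle array was lowest (16.8% of all genes) and for 6 the CCG1423 array (34.0%). The median range over the 5 arrays was 2.88 log2 units for these members and 0.70 for all genes measured on all arrays.

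**Figure D1:**
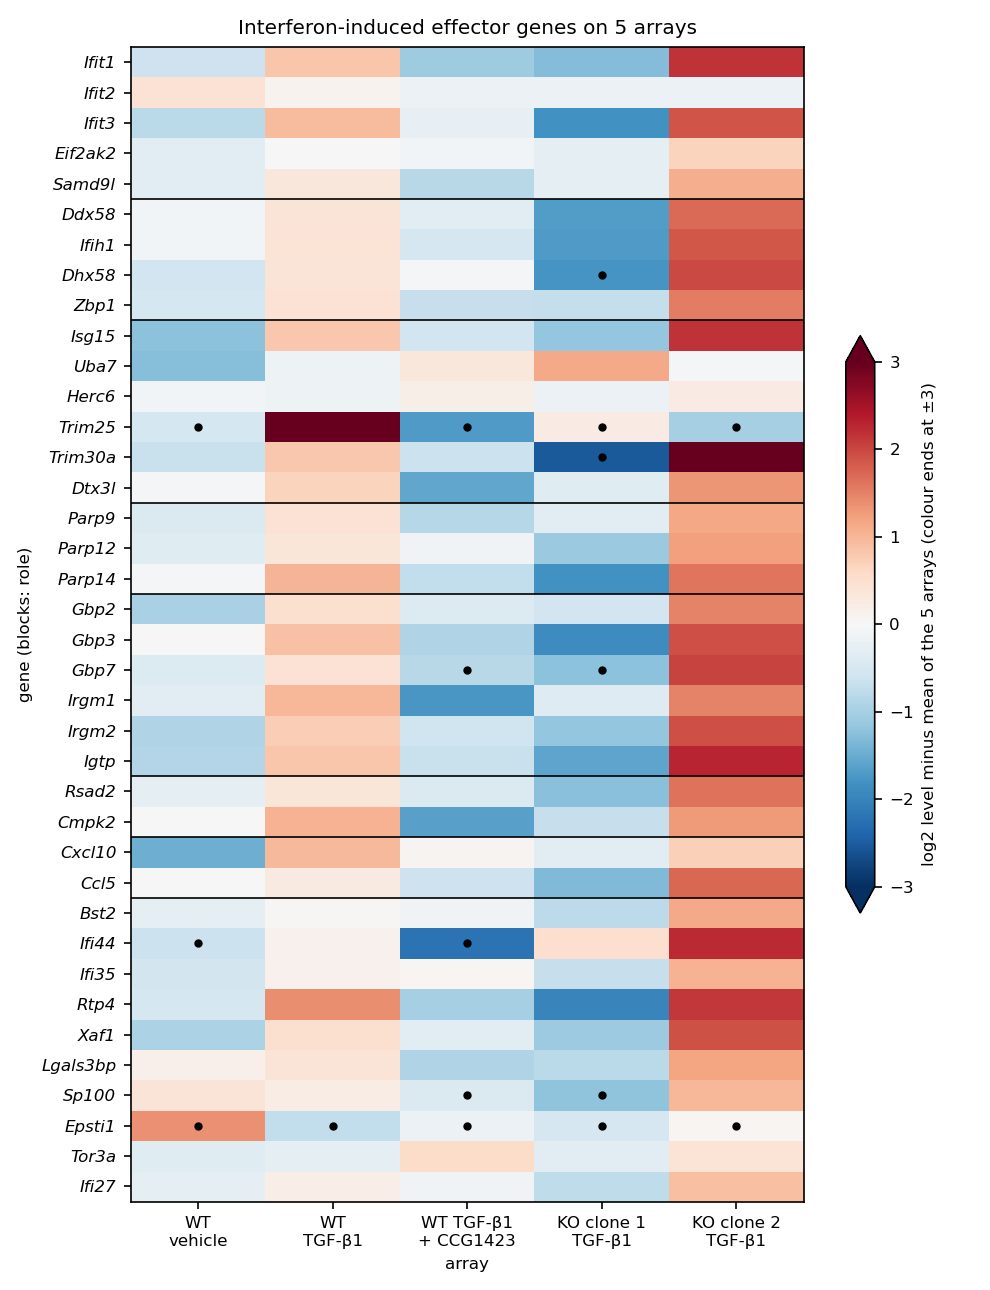
Heat map of the 38 matched genes (rows, in blocks by role) on the 5 arrays (columns). Colour is the log2 level minus the gene's mean of the 5 arrays, and a black dot marks a signal not well above background. The clone 2 column is red for most genes, and it is the highest array for 27 of the 31 genes measured everywhere.

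Promoter stretches of 8 members are shown here as examples, picked after their values were seen. All 8 were at least 2-fold higher in clone 2 than in clone 1 and carry the response-element core. Others that did so, among them Bst2, Gbp2, Irgm2 and Trim30a, are not shown. They come from RefSeq promoter windows on build GRCm38.p6 that reach from 250 bases before to 50 bases after each gene's start. Each is written 5′ to 3′ on the gene's strand with 20 bases on either side of the outermost motifs where the start allows it. Capitals mark matches to the core of the response element, GAAA followed by any 2 bases (NN) and GAAA again, or to its reverse complement, TTTC, NN and TTTC.
Isg15 (chr4:156200855-156200916, minus strand): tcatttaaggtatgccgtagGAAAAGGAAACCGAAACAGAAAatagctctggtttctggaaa
Ifit1 (chr19:34640765-34640833, plus strand): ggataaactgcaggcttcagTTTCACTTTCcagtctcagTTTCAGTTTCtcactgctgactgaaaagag
Ifit3 (chr19:34583353-34583436, plus strand): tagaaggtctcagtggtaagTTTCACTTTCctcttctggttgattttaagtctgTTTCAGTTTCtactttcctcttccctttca
Rsad2 (chr12:26456543-26456592, minus strand): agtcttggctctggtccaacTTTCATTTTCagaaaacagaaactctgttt
Cxcl10 (chr5:92349073-92349122, minus strand): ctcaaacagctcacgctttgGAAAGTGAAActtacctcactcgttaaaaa
Gbp3 (chr3:142559979-142560034, plus strand): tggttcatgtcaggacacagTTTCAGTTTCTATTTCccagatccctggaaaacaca
Irgm1 (chr11:48871421-48871470, minus strand): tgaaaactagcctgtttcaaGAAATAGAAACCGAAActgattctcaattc
Igtp (chr11:58199502-58199551, plus strand): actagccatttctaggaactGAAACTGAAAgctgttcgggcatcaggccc

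Isg15 has 3 overlapping matches in a single run, Gbp3 and Irgm1 have 2 overlapping ones each, and Ifit1 and Ifit3 have 2 apart from each other. Of the 30 members with a promoter window, 16 (53.3%) held the motif on either strand, whereas 1131 of 32851 windows of that length (3.44%), or 3.99% of 27025 genes, did. The GAS pattern TTCNNNGAA, which is its own reverse complement, was found for 7 of the 30 members and 9.55% of all genes. Among members compared between the clones, the 16 with the response-element core had a median log2 difference of 3.21 (clone 2 minus clone 1), from 0.95 to at least 5.07 (Trim30a). The 12 members with a window but no match had 1.71, from -1.20 to 2.99. For the 8 members with no window it was 2.65, from 0.73 to 4.08, and the 3 sets were not tested against each other. Signals not well above background in clone 1 stand at the detection limit in these medians. A match is a string of letters in 1 window, not a binding site, and members without one may carry it elsewhere.

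Translation-blocking effectors split into genes that differed widely between arrays and genes that hardly did. Ifit1, which captures foreign RNA caps, read -2.53, -1.09, -2.98, -3.22 and 0.25, so that TGF-β1 stood 2.71-fold above vehicle and clone 2 11.1-fold above clone 1. Ifit3, its partner, read -0.88, 0.88, -0.31, -1.88 and 1.82, a distance of 13.0-fold between the clones. Both genes were lowest in clone 1 and highest in clone 2. Ifit2 lies next to Ifit3 in the gene order and read -0.24, -0.57, -0.85, -0.85 and -0.85, highest with vehicle and alike on the last 3 arrays. Eif2ak2, which encodes the RNA-activated kinase PKR, read 1.82, 2.14, 2.05, 1.86 and 2.80, and Samd9l, a translation-limiting restriction factor, 1.74, 2.40, 1.23, 1.76 and 3.14. Both were highest in clone 2, by 1.58-fold and 1.67-fold over the wild-type TGF-β1 array.

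All 4 nucleic acid sensors were lower in clone 1 and higher in clone 2 than the wild-type TGF-β1 array. Ddx58 encodes RIG-I, the sensor of uncapped RNA ends, and read 2.04, 2.52, 1.80, 0.44 and 3.83. Ifih1, which encodes the long-duplex sensor MDA5, read -2.04, -1.57, -2.48, -3.66 and -0.11. The third member of that helicase family, Dhx58 (LGP2), read -3.28, -2.32, -2.74 and, in clone 2, -0.73; it was not well above background in clone 1, which puts clone 2 at least 11.1-fold above it. Zbp1, a sensor of Z-form nucleic acid, read -3.11, -2.16, -3.29, -3.31 and -1.05. In none of the 4 did TGF-β1 and vehicle differ by 2-fold (1.39-fold to 1.95-fold higher with TGF-β1).

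The ISG15 pathway was not uniform. Isg15, the ubiquitin-like tag, read 2.97, 5.02, 3.62, 3.05 and 6.37, which put TGF-β1 4.15-fold above vehicle and clone 2 9.98-fold above clone 1. Uba7, the enzyme that activates ISG15, went another way with 0.80, 1.95, 2.44, 3.22 and 2.03. It was the only member 2-fold higher in clone 1 than on the wild-type TGF-β1 array (2.43-fold), where 4.52% of genes were higher. It was also the only member 2-fold lower in clone 2 than in clone 1 (2.29-fold), where 3.34% of genes were lower. Herc6, the mouse ligase for ISG15, spanned only -1.81 to -1.38. Trim30a, a RING-type TRIM protein, had the widest gap between the clones, at least 33.6-fold, with 0.87 in clone 2 and no signal well above background in clone 1. Dtx3l, a ubiquitin ligase that partners Parp9, read -0.72, 0.02, -2.23, -1.03 and 0.66. Trim25, the ligase that activates RIG-I, had a detectable signal only in wild-type cells with TGF-β1, at -1.48. Its other probe was below background everywhere, so its differences rest on 1 spot of 1 array.

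The ADP-ribosyltransferases followed the main pattern to different degrees. Parp14 read -1.77, -0.67, -2.44, -3.52 and -0.09, a 10.8-fold distance between the clones. Parp9 read -0.28, 0.58, -0.70, -0.17 and 1.31 and Parp12 -0.90, -0.19, -0.65, -1.67 and 0.69, with 2.80-fold and 5.13-fold between the clones. Parp14, Dtx3l and Parp9 are consecutive protein-coding genes; with CCG1423 they were 3.41-fold, 4.74-fold and 2.43-fold below TGF-β1 alone.

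The interferon-inducible GTPases coat and break open pathogen vacuoles. All 6 measured ones were at least 2-fold lower in clone 1 than on the wild-type TGF-β1 array, where 3.34% of 14212 genes were lower. Against the vehicle array only 1 of the 6, Gbp3, was at least 2-fold lower in clone 1 (4.87% of genes). There 5 lay below 0 and 1, Gbp2, above. Igtp read -1.23, 0.46, -1.03, -1.95 and 1.93, its neighbour Irgm2 -1.08, 0.57, -0.77, -1.34 and 1.75, and the regulatory Irgm1 1.73, 3.06, 0.32, 1.68 and 3.55. Igtp and Irgm2 were lowest in clone 1, but Irgm1 was lowest with CCG1423, 2.64-fold below the vehicle array. Gbp2 read -1.36, 0.10, -0.80, -0.96 and 1.11 and was lowest with vehicle. Gbp3 read -0.65, 0.25, -1.53, -2.52 and 1.31, a 14.2-fold distance between the clones. Gbp7 was -3.56, -2.72 and -1.14 with vehicle, with TGF-β1 and in clone 2 and not well above background on the other arrays.

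Rsad2 and Cmpk2 are adjacent genes. The Rsad2 product, viperin, turns CTP into a chain-terminating antiviral nucleotide, and Cmpk2 encodes a nucleotide kinase that helps supply CTP. Rsad2 read 0.10, 0.76, -0.05, -0.86 and 2.02, and Cmpk2 -1.22, -0.17, -2.85, -1.91 and 0.05. They parted with CCG1423, where Cmpk2 was 6.43-fold and Rsad2 1.75-fold below TGF-β1 alone. A second Rsad2 probe was instead higher with CCG1423, by 0.67 log2 units, so the Rsad2 value depends on the probe. The chemokines differed too. Cxcl10, which draws CXCR3-bearing T cells, read 0.84, 3.30, 2.40, 2.01 and 3.03, highest with TGF-β1 and lowest with vehicle. Ccl5, which draws T cells and monocytes, read 2.00, 2.28, 1.39, 0.68 and 3.74, highest in clone 2 by 2.75-fold over wild type.

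Among the other effectors, Rtp4, a receptor chaperone that restrains flaviviruses, read 1.87, 3.78, 1.39, 0.42 and 4.51 and was 10.3-fold below wild type in clone 1. Bst2, the virion tether tetherin, read 4.76, 5.10, 4.95, 4.27 and 6.20, and Lgals3bp, a secreted galectin-binding glycoprotein, 5.79, 6.02, 4.72, 4.81 and 6.80. Xaf1, a pro-apoptotic XIAP antagonist, read -0.30, 1.14, 0.33, -0.44 and 2.56. Clone 2 was the highest array for these 4 genes. Ifi35 and Ifi27 had ranges from 2.29 to 4.03 and from 5.46 to 7.13, in both cases from clone 1 to clone 2. Ifi44 was not well above background with vehicle or CCG1423 and stood at -3.55 with TGF-β1, -3.18 in clone 1 and -1.43 in clone 2; with Uba7 it was the only member above 0 in clone 1 against wild type. Tor3a, a torsin ATPase, was highest with CCG1423, at 1.61 against 0.78 with TGF-β1. Sp100, a nuclear body protein, reached -2.75 in clone 2 and was not well above background in clone 1 or with CCG1423.

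Vehicle and TGF-β1 arrays of wild-type cells address the effect of TGF-β1. With TGF-β1, 15 of 37 members exceeded their vehicle level by 2-fold or more and 0 were at least 2-fold lower, where 4.95% of 14142 genes were higher and 3.27% lower. The members' median log2 difference was 0.86, against -0.05 for all genes, and 34 of 37 lay above 0 and 3 below (42.8% and 57.2% of all genes). Besides Isg15 and Cxcl10 (5.48-fold), the counted genes included Rtp4 (3.76-fold), Ifit3 (3.40-fold), Igtp (3.24-fold) and Irgm2 (3.13-fold). Members below 0 were Ifit2, Herc6 and Sp100, at -0.33, -0.07 and -0.17. With 1 array on each side this difference was smaller than the distance between the 2 clones, which shared a treatment.

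The next question is what adding CCG1423 to TGF-β1 does. Of 37 members 18 were at least 2-fold lower and 0 at least 2-fold higher, where 6.98% of 14054 genes were lower and 6.01% higher (9.28% and 4.68% with the scaling of the deposited value table). The median was -1.13 (-0.92 with dim signals at the detection limit), against -0.05 for all genes, and 34 members lay below 0 and 3 above (53.7% and 46.3% of all genes). Irgm1 (6.66-fold), Cmpk2, Rtp4 (5.25-fold), Dtx3l, Ifit1 (3.69-fold) and Gbp3 (3.43-fold) were among the lower genes, whereas Eif2ak2, Ifi35 and Bst2 differed by -0.09, -0.08 and -0.14. With normexp background correction the count was 9, where 3.68% of all genes were lower, and the median -0.68. These 2 comparisons share the TGF-β1 array. Set against vehicle instead, the CCG1423 array had 4 of 35 members at least 2-fold lower (Cmpk2, Dtx3l, Irgm1 and Lgals3bp) and 2 higher (Uba7 and Cxcl10), where 8.06% and 7.57% of genes were, and a median of -0.14.

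**Figure D2:**
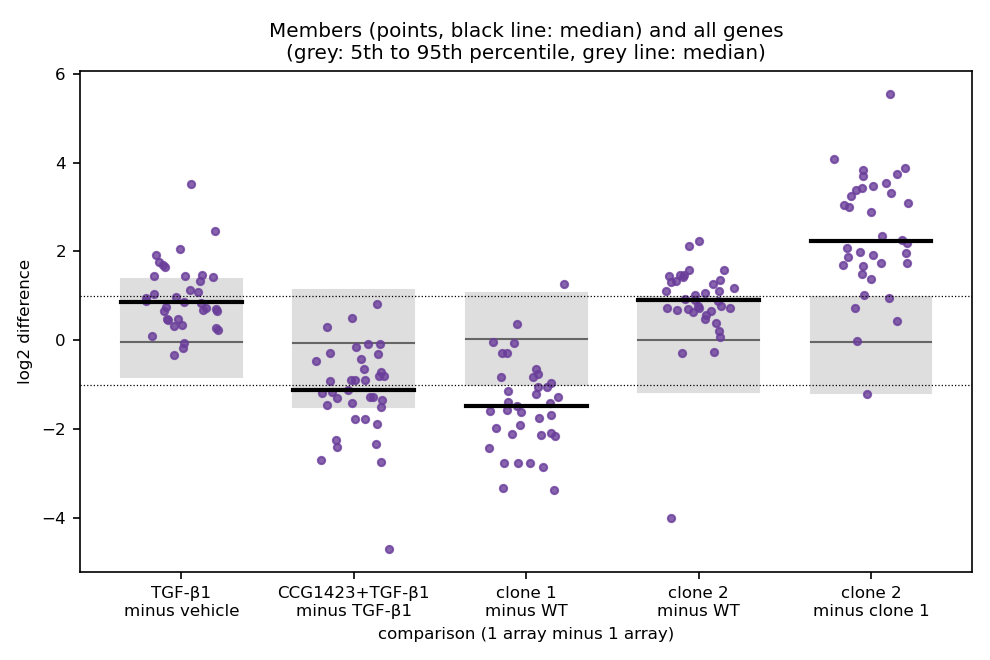
Log2 differences of the members (points, with a black line at their median) in 5 comparisons of 1 array against another, beside the 5th to 95th percentile of all genes (grey block, grey line at the median). The members' medians are 0.86, -1.13, -1.48, 0.90 and 2.23 from left to right, and dotted lines mark 2-fold.

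The knockout comparison asks how Tmsb4x knockout cells differ from wild-type cells under TGF-β1. None of 37 members passed in limma's test of both clones against wild type over all genes (adjusted p from 0.21 to 1), where 31 of 13726 genes (0.226%) did. At an unadjusted p under 0.05, 1 member passed, Trim25, against 5.76% of all genes. Trim25 was tested only because of its wild-type TGF-β1 signal. Neither clone was well above background for it, so its p-value cannot show a knockout difference. The median residual SD, which measures the distance between the clones, was 1.56 log2 units for the members and 0.20 for all genes.

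Each clone was therefore set against wild type on its own. In clone 1, 25 of 37 members were at least 2-fold lower and 1 was higher, whereas 3.34% of 14212 genes were lower and 4.52% higher; with the deposited table's scaling those shares of all genes were 7.04% and 2.42%. The members' median was -1.48, with 35 below 0 and 2 above (47.8% and 52.2% of all genes). Rtp4, Trim30a (at least 7.19-fold), Parp14 (7.24-fold), Ifit3 (6.81-fold) and Gbp3 (6.80-fold) lay furthest below. In clone 2, 17 of 37 members were at least 2-fold higher and 1, Trim25, was lower, where 4.74% of 14033 genes were higher and 2.73% lower. The median was 0.90, with 34 above 0 and 3 below (50.7% and 49.3% of all genes). Trim30a (4.67-fold), Ifi44 (4.34-fold), Dhx58 (3.01-fold), Gbp7 (2.98-fold) and Igtp (2.77-fold) lay furthest above. With normexp correction the clone 2 count was 11, where 1.86% of all genes were higher. Both comparisons use the same wild-type array.

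**Figure D3:**
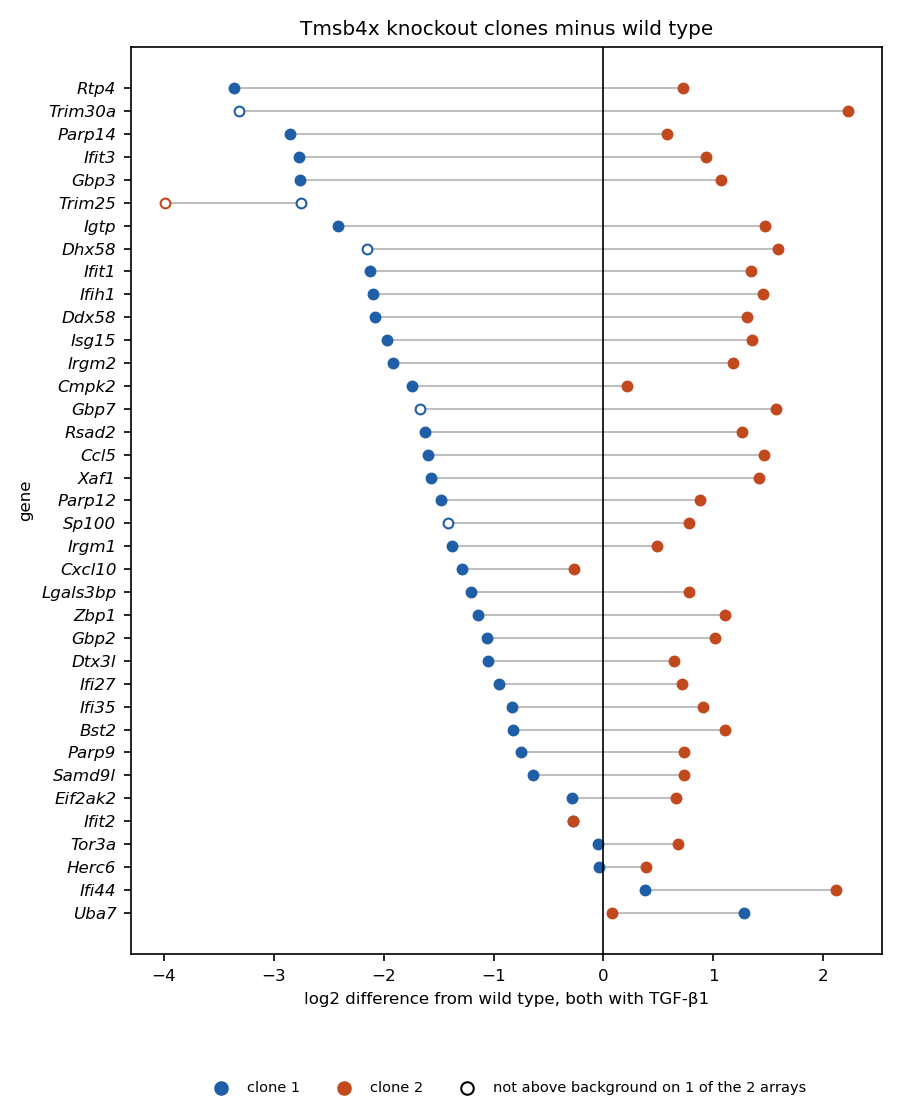
Log2 difference of each clone from wild-type cells, both with TGF-β1, for 37 genes ordered by clone 1 (blue, clone 1; orange, clone 2; open circles, 1 of the 2 arrays not well above background). Clone 1 points lie left of 0 for 35 genes and clone 2 points right of 0 for 34; Trim25, Cxcl10 and Ifit2 lie left of 0 in clone 2.

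Set directly against each other, the clones differed at least 2-fold in 32 of 36 members, 31 higher in clone 2 and 1 (Uba7) lower, where 4.24% of 13846 genes were higher and 3.34% lower (7.84% and 2.03% with the deposited table's scaling). The median was 2.23 (2.16 with dim signals at the detection limit), with 34 above 0 and 2 below (45.8% and 54.2% of all genes). At 4-fold or more, 19 members were higher in clone 2, against 1.41% of all genes, and at 8-fold or more 14, against 0.585%. The 4 members under 2-fold were Eif2ak2 (1.93-fold), Tor3a (1.65-fold), Herc6 (1.34-fold) and Ifit2 (-0.00 on the log2 scale). Compared with vehicle-treated wild-type cells, clone 2 had 31 of 36 members at least 2-fold higher and 0 lower (6.71% and 3.51% of genes). Clone 1 had 8 of 36 lower and 3 higher than vehicle (4.87% and 7.22% of genes), with Gbp3 3.66-fold and Parp14 3.38-fold lower and Uba7 5.36-fold higher. This difference lies within the knockout group, so its relation to Tmsb4x was not tested.

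For 5 members the array carries 2 or 3 probes well above background on all arrays. In 22 of 25 gene and comparison pairs their probes had the same sign. The 3 Irgm1 probes gave -2.89 to -2.69 with CCG1423 and 1.87 to 1.88 between the clones, and the 3 Ddx58 probes 2.55 to 3.39 between the clones. Of the 3 other pairs, 1 was Ifi35 with CCG1423, near 0 at -0.08 and 0.06, and 2 were Rsad2. Its probes gave 0.67 and -0.16 for TGF-β1 and -0.81 and 0.67 for CCG1423, but 2.88 and 2.74 between the clones. The Rsad2 values for TGF-β1 and CCG1423 therefore depend on the probe.

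**Figure D4:**
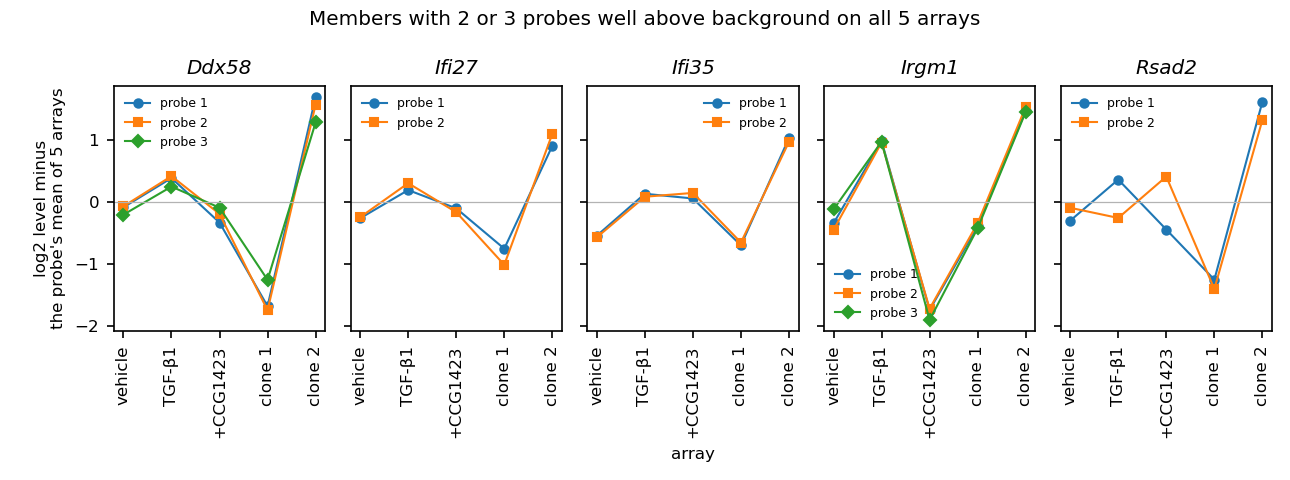
Level of each probe on the 5 arrays, minus that probe's own mean, for the 5 members with 2 or 3 probes well above background throughout. The 2 Rsad2 lines part on the TGF-β1 and CCG1423 arrays and run the same way in the clones, and the 3 Ddx58 lines run the same way there but differ in size (2.55 to 3.39 between the clones).

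TGF-β1 against vehicle and clone 2 against clone 1 have no array in common, so the 31 members measured everywhere can be plotted in both. Across these genes, which share a slide and are not independent replicates, Pearson's r was 0.41 and Spearman's rho 0.48, whereas all 12055 genes gave -0.02 and -0.04. Rtp4, Igtp, Ifit3, Isg15 and Irgm2 were high in both. Cxcl10 had the largest TGF-β1 difference of the 31 and a clone difference of 1.02, and Ccl5, Ddx58 and Ifih1 combined clone differences above 3 with TGF-β1 differences of 0.28 to 0.48.

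**Figure D5:**
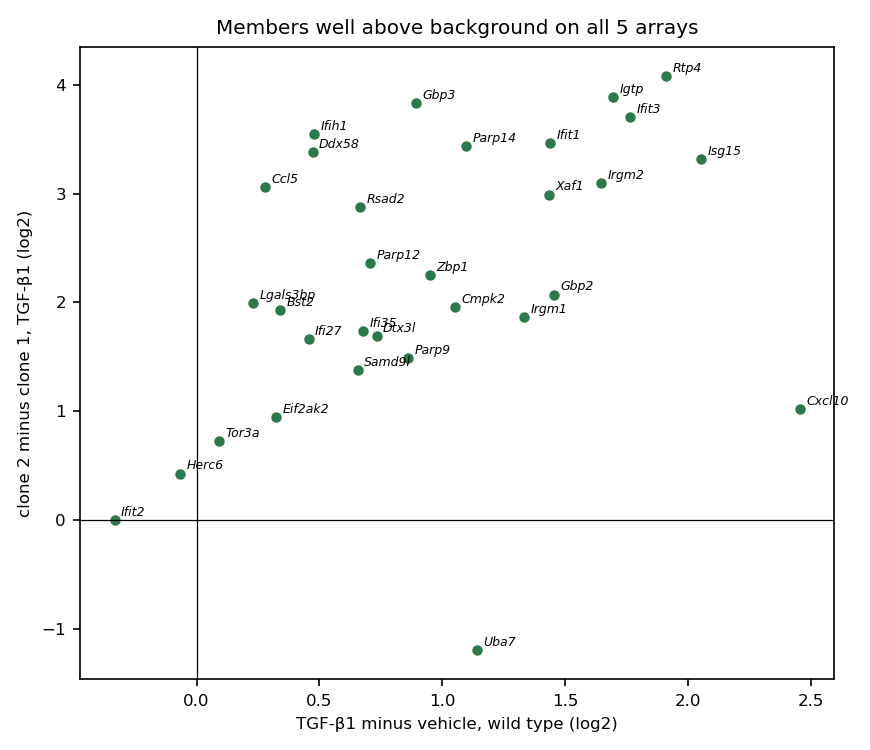
Log2 difference between TGF-β1 and vehicle in wild-type cells (horizontal) against that between clone 2 and clone 1 (vertical) for the 31 members well above background on all arrays. Most points lie in the upper right, Uba7 lies below 0 at -1.20, and Cxcl10 lies far right at 2.45.

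The genes upstream of the effectors fell into those that shared the pattern and those that did not. Irf9, the DNA-binding subunit of the complex, read 1.61, 2.65, 1.59, 1.17 and 3.06, highest in clone 2 and lowest in clone 1. Irf7, the factor that amplifies interferon production, read -0.62, 1.25, -0.13, -1.16 and 2.85. Of 10 STATs and IRFs compared between the clones, 3 were at least 2-fold higher in clone 2, Irf9 and Irf7 among them, and 0 were lower, where 4.24% of all genes were higher and 3.34% lower. Stat2, the partner of Irf9, spanned only 0.25 to 0.92. Usp18, which removes ISG15 and damps the receptor, had 0.31, 2.16, 0.92, -1.67 and 3.92, a 48.1-fold distance between the clones. Of 6 feedback regulators it alone was at least 2-fold higher in clone 2, and 0 were at least 2-fold lower (4.24% and 3.34% of all genes). Their median was -0.07, with 2 above 0 and 4 below. None of the 9 receptor chains and kinases differed 2-fold between the clones (median -0.24), nor did any of 10 sensing adaptors and receptors (median 0.37). None of these genes passed limma against wild type.

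Of 19 interferon genes with a probe, 12 were well above background on at least 1 array, where 66.1% of all named genes were, and 4 on all 5. Near-identical family members can share a probe's signal. Ifnb1 was below background on every array. Ifng was well above background in clone 1 alone, at -0.77, so this reading rests on 1 spot of 1 array. Ifnk, an epithelial type I interferon, was well above background with vehicle (-0.57), with CCG1423 (-3.54) and in clone 1 (-0.77), which puts clone 1 at least 7.41-fold above clone 2. Ifne was well above background in wild-type cells with TGF-β1 alone, at 0.10. It passed limma for the knockout (adjusted p = 0.0337), 1 of 9 ligands tested. Like Trim25, it is bright on 1 array and was tested only because of that array. Neither clone was well above background, so the pass cannot show a knockout difference.

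Neighbouring programmes gave the following in clone 2 against clone 1, where 4.24% of all genes were at least 2-fold higher and 3.34% lower. Of 7 genes of the OAS family and RNase L, 6 were at least 2-fold higher in clone 2. Among 9 antigen presentation genes 3 were higher and 1 lower: Tap1, the peptide transporter subunit, read -3.69 in clone 1 and -1.04 in clone 2, whereas H2-K1, a class I heavy chain with close paralogues, read 3.21 and -1.62. NF-κB genes, whose factor also acts on Cxcl10 and Ccl5, had a median of 0.11 with 2 of 8 higher. Socs1, a feedback inhibitor, read -2.64 in clone 1 and -1.90 in clone 2. No test compares these lists with the effector genes.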

How the data were processed

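RNA of 5 B16F1 cultures was hybridised to 5 Agilent one-colour (Cy3) arrays. The deposited scanner files hold the intensity of each spot (processed signal, background-subtracted and spatially detrended, not normalized between arrays), from the software Agilent Feature Extraction, version 12.0.3.1, per the file headers and the submitters' processing notes. The deposited value table holds the same intensity times a constant per array (log2 from -0.17 to 0.34), whose rule is unknown.

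Control spots and outlier spots (107 to 141 of 59305) were left out, log2 signals were averaged per probe, and the 75th percentile was subtracted. Of 56595 probes, 32983 were named for 22903 genes by RefSeq accession without version (table of GRCm38.p6); an accession shared by several genes named none. The probe with the highest mean stood for a gene. A gene was compared when 1 side or both had it well above background throughout. Single arrays were compared by 2-fold counts. The knockout was tested with limma 3.58.1 (R 4.3.3; trend, all 5 arrays in 4 groups, 1 residual degree of freedom, Benjamini-Hochberg, threshold 0.05), with the lone wild-type array assumed to vary like the clones. The fit was also run on simulated data in which both clones shared an effect and varied like the typical gene of that level. That run does not cover members whose clones lie far apart. Other steps used Python 3.11.15, numpy 2.4.6, pandas 2.3.3 and matplotlib 3.10.9.

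All 40 listed genes are accounted for; other genes come from lists of interferon ligands, receptors, STATs and IRFs, regulators, adaptors, OAS, antigen presentation, NF-κB and cell type markers. Members, lists and roles were chosen with earlier results of these data known. Promoters shown, and examples within a count, were picked after their values were seen. Alternatives covered background correction, scaling, the deposited table, probe choice, filters, the fold, the floor and each clone; normexp used the median spot signal, as the files have no mean signal. Values of 1 gene of the lists are not reported here.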

Additional observations from a re-analysis of the deposited data

How the results depend on the processing

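No paired analysis was possible because the groups share fewer than 2 replicate numbers. Under 9 alternatives for each of the 15 member counts and medians, no direction turned. With normexp the medians were 0.60 (TGF-β1), -0.68 (CCG1423), -1.04 (clone 1) and 1.73 (clone 2 minus clone 1). The counts were 9 lower with CCG1423 (3.68% of all genes) and 11 higher in clone 2 (1.86%). With the deposited value table the median was -1.83 in clone 1 and 2.55 between the clones. In that setting 0 members were 2-fold higher in clone 1 (2.42% of all genes) or lower in clone 2 than in clone 1 (2.03%). That table shifted the median of all genes to -0.33 in clone 1, -0.18 with CCG1423 and 0.27 between the clones, and the members' distance from the median gene did not move. The CCG1423 median was -0.90 with the mean over probes and -0.92 over genes measured on all arrays. Both settings left 0 members lower in clone 2 than in wild type (2.46% and 1.34% of all genes). At 1.5-fold, 26 members were higher with TGF-β1 (9.09% of all genes) and 1 with CCG1423 (13.8%). In clone 2, 29 were higher than in wild type (9.21%). Without a filter, Epsti1 added 1 lower gene with TGF-β1 (4.29% of all genes were lower). In that setting 2 members, Uba7 and Trim25, were lower in clone 2 than in clone 1 (3.69%). Trim25 was not well above background in either clone. In limma 2 members passed without a filter (Trim25, adjusted p = 0.0195, and Rtp4, adjusted p = 0.00158) and 1 with the deposited table (Trim25, adjusted p = 0.00301); the other settings gave 0. Rtp4 lay at -3.36 in clone 1 and 0.72 in clone 2, on opposite sides of wild type, so its pass cannot show a knockout difference. The knockout median of -0.28 ranged from -1.48 to 0.90 when either clone was left out, with no test since no residual degrees of freedom remained. For single members, 1075 values moved by less and 184 more than the median gene's residual SD, and 0 of those at 2-fold turned sign. Dim genes are limited by the signal over background, most in clone 2.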
